A study of Mus musculus with 4 samples.

Results

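Epidermal keratinocytes with a deletable Casp8 gene were compared at culture passage 1 on 2 two-colour Agilent mouse arrays, which are 2 of the 4 arrays of the series and were taken by their labels (early passage, pairs 1 and 2). Each array set RNA of a Casp-8F/–K5-Cre culture (F/-) in the dye Cy3 against RNA of a Casp-8F/+K5-Cre culture (F/+) in Cy5. F stands for a Casp8 allele flanked by loxP sites, the minus sign for a null allele and the plus sign for a wild-type allele, so that both genotypes carried K5-Cre and 1 flanked allele and differed in the other allele. K5 names the promoter of a keratin gene of basal cells, which drives the Cre recombinase, and no culture without Cre was analysed here. Cells came from the epidermis of mice of age P3, 2 mice per genotype, and were grown without serum in the presence of EGF and a pituitary extract. The same animals gave RNA again at passage 3, on the other 2 arrays.

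Caspase-8 is the initiator protease that the adaptor FADD recruits to death receptors, where it starts apoptosis. Together with the inhibitor cFLIP it also cleaves the kinases RIPK1 and RIPK3 and so holds back necroptosis, a lytic form of death executed by MLKL. In skin, loss of caspase-8 from keratinocytes is known to be followed by inflammation. Keratinocytes divide in the basal layer and then move through suprabasal layers while they build the cornified envelope, the cross-linked protein shell of the barrier.

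For each array the text gives the log2 ratio of F/- to F/+ RNA, and for each RNA the normalised intensity, called its level, in arbitrary units that include an offset of 50 and cannot be set against the level of another gene. Of 41174 probes, 35563 were kept, and each of 18395 genes is represented by its brightest kept probe. The ratios of the 2 arrays correlated across 35505 probes with Pearson's r of 0.581 and Spearman's rho of 0.532, and probes are not independent replicates. Ratios spread more widely in pair 1 (SD 0.357) than in pair 2 (SD 0.269). The dyes were never exchanged, so a dye effect and the genotype cannot be told apart on these arrays. Fewer cells of a type and less RNA per cell cannot be told apart either, since the RNA came from whole cultures. All 9 keratinocyte markers were well above background in every passage 1 channel, as were 17336 of all 18395 genes. The same held for all 15 leukocyte and all 15 fibroblast markers, so this does not tell the cell type. Of the 9 keratinocyte markers, 4 read higher and 4 lower in F/- RNA on both arrays, with medians of -0.17 in pair 1 and 0.02 in pair 2. Among those that read lower, Krt14, the basal keratin partner of Krt5, had levels of 144000 in F/- and 179000 in F/+ RNA of pair 1 and 130000 and 205000 in pair 2. Eif2s3y, a Y chromosome gene, read 2350 in F/- and 5670 in F/+ RNA of pair 1 and 3380 and 4140 in pair 2, and a share of male cells that differs between genotypes was not tested.

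No probe passed the test at passage 1. limma called 0 of 35563 probes at an adjusted p under 0.05 (0.0%), with a smallest adjusted p of 0.0701, while 7330 (20.6%) had an unadjusted p under 0.05 against 1778 by chance. The differences below are therefore readings on 2 arrays, none of which passed. Ratios past 2-fold on both arrays were found for 28 genes that read higher (0.153% of 18353) and 20 that read lower in F/- RNA (0.109%), and 4 genes (0.0218%) were past 2-fold in opposite directions. By probe, 64 (0.18%) read higher and 33 (0.0929%) lower past 2-fold on both. Pair 1 alone held 286 genes past 2-fold higher (1.56%) and 227 lower (1.24%), whereas pair 2 held 41 (0.223%) and 65 (0.354%).

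Among the genes past 2-fold on both arrays, 4 matrix metalloproteinases read higher and 8 genes of the cornified and suprabasal layers read lower in F/- RNA. Mmp13, which encodes an interstitial collagenase, had levels of 9550 in F/- and 606 in F/+ RNA of pair 1 and of 5270 and 1120 in pair 2. Both F/- levels lay above both F/+ levels, as in 21.7% of all genes, but the gene was named for its large ratios of one sign. The log2 ratios of 3.98 and 2.24 gave a mean of 3.11 ± 1.2 (SD, n = 2, limma adjusted p = 0.0982). Mmp8, the neutrophil collagenase gene, read 1130 and 587 in F/- against 147 and 272 in F/+ RNA, a mean ratio of 2.02 ± 1.3 (adjusted p = 0.126). The stromelysin gene Mmp10 read 2710 and 1290 against 593 and 558. In all 3 the F/- level was highest in pair 1. That it was the higher one of each array follows from how these genes were chosen.

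Mmp9, a gelatinase gene, had F/- levels of 4530 and 3790 and F/+ levels of 843 and 1480, with a mean ratio of 1.89 ± 0.76 (SD, n = 2, adjusted p = 0.0783) and 2.17 on a second probe. Among the 11 matrix metalloproteinases measured, 9 read higher on both arrays and none lower, beside 33.0% of all genes higher on both, and their median ratio was 0.94 (1.46 in pair 1 and 0.60 in pair 2). Of the wider list of 21 proteases of matrix and wound, 14 read higher on both arrays and 1 lower, 4 of them past 2-fold on both, and 0 were called. The list's median was 0.29 (0.52 in pair 1 and 0.16 in pair 2), and 0.06 with median centring of each array in place of loess. The exception was Timp2, an inhibitor of metalloproteinases, at 4680 and 5550 in F/- against 8930 and 7610 in F/+ RNA. In the plasminogen system, 5 of 6 genes read higher on both arrays, with a median of 0.21 (0.49 in pair 1 and 0.09 in pair 2).

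**Figure D1:**
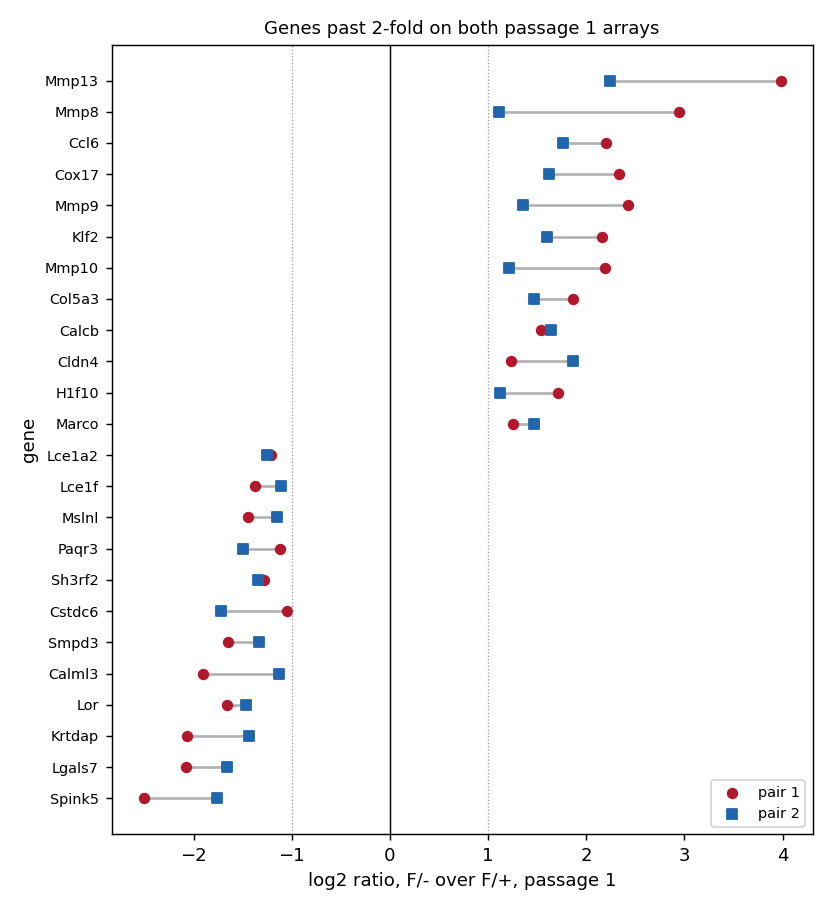
Log2 ratio of F/- over F/+ at passage 1 (horizontal axis) for the 12 highest and 12 lowest genes among those past 2-fold on both arrays, with a circle for pair 1 and a square for pair 2. Both symbols of a gene lie outside the dotted lines at 2-fold because this chose the genes; Mmp13 reaches 3.98 in pair 1 and 2.24 in pair 2, and Spink5 lies at -2.51 and -1.76.

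Other genes of the highest group have varied roles. Ccl6, a macrophage-attracting chemokine gene, read 1830 and 1360 in F/- against 400 and 403 in F/+ RNA, so that both F/+ cultures were alike and both F/- cultures more than 2-fold above them (mean ratio 1.98 ± 0.31, adjusted p = 0.0701). Cldn4, a tight junction gene, read 15700 against 6710 in pair 1 and 36700 against 10100 in pair 2. Calcb, which encodes a calcitonin gene-related peptide, read 758 and 945 against 260 and 303, and its 2 ratios, 1.54 and 1.64, lay close together. The scavenger receptor gene Marco read 2710 and 3610 against 1140 and 1300 (ratio 1.36 ± 0.15, adjusted p = 0.0701). Col5a3, a collagen gene, had a ratio of 1.67 ± 0.28, but its second probe read -0.26. Cox17, Klf2 and H1f10 were also past 2-fold on both arrays, while their second probes read -0.22, 0.17 and 0.25. All 3 read below 0 on both arrays of passage 3.

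RefSeq promoter windows, from 250 bases before to 50 after a gene's start (assembly GRCm38.p6), were searched on both strands for the AP-1 letters TGANTCA. Of the genes that have a window, 7 of 16 of the protease list held the letters (43.8%) and 13 of 54 of the cornified list (24.1%), beside 1139 of 14568 measured genes (7.82%) and 2565 of all 32851 windows (7.81%). Other lists held them as well, with 7 of 22 cytokine genes (31.8%), 9 of 34 interferon effectors (26.5%) and 5 of 24 NF-kB genes (20.8%). The windows of Mmp13, which read highest in F/- RNA, at chr9:7272264-7272563 (plus strand), and of the envelope gene Lor, which read lower, at chr3:92083093-92083392 (minus strand), are shown because both hold 1 match close to the start although the genes read in opposite directions. The match begins at -35 in Mmp13 and at -48 in Lor, and capitals mark it. A match describes the letters only.
Mmp13: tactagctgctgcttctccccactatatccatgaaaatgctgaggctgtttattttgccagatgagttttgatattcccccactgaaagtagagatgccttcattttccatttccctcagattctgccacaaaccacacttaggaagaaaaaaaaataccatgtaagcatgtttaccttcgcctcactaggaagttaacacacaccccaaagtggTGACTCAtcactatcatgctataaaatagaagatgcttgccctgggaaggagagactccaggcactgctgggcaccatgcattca
Lor: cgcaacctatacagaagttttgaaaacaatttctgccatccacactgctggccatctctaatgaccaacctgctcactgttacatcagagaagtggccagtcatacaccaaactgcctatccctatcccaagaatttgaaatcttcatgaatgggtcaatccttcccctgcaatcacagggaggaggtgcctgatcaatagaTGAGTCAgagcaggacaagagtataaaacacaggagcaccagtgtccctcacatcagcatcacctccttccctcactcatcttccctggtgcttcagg

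Genes of the cornified envelope and suprabasal layers read lower in F/- cultures. Of 73 measured, 53 read lower and 8 higher on both arrays, beside 35.6% of all genes lower on both, 8 were past 2-fold lower on both, and 0 were called. The list's median ratio was -0.46 (-0.59 in pair 1 and -0.29 in pair 2), against -0.01 over all genes, and -0.84 with median centring. In levels, 46 of the 73 had both F/- values below both F/+ values, as did 17.8% of all genes.

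A role of secreted peptides, which also holds genes of a galectin and a calmodulin-like protein, had the lowest median of the roles in this list. All 7 genes of this role read lower on both arrays on the brightest probe. Their median of -1.07 equals the value of the brightest Sbsn probe. Second probes of Sbsn and Dmkn, at -1.07 and -0.92 on the brightest, read the other way at 0.77 and 0.69. Lgals7, which encodes galectin-7 of stratified epithelia, read 10900 and 9970 in F/- against 46100 and 31400 in F/+ RNA (ratio -1.87 ± 0.30, SD, n = 2, adjusted p = 0.0743). Both of its F/- levels lay below both F/+ levels, as in 17.8% of all genes, but the gene was named for its large ratios of one sign. Krtdap, a peptide of differentiating keratinocytes, read 4060 and 5180 against 17100 and 14000, and its second probe had a mean ratio of -1.76. Calml3, a calmodulin-like gene, read 234 and 476 against 872 and 1040.

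Spink5 encodes LEKTI, the inhibitor of epidermal kallikreins whose loss causes Netherton syndrome. It had the lowest mean ratio of all genes, with levels of 3410 and 5110 in F/- and 19400 and 17300 in F/+ RNA (ratio -2.14 ± 0.53, adjusted p = 0.0743). Klk5, a kallikrein that LEKTI inhibits, read 693 against 3020 in pair 1 and 1270 against 1920 in pair 2, so the step was larger in pair 1. Cst6, the gene of cystatin M/E, read 12200 against 89700 in pair 1 but 49000 against 49800 in pair 2. For that gene the 2 arrays gave log2 ratios of -2.88 and -0.02, and its second probe averaged -0.11. Among the 15 proteases, inhibitors and crosslinkers, 8 read lower and 2 higher on both arrays, with a median of -0.97 in pair 1 and -0.02 in pair 2.

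Envelope precursors read lower on both arrays for 16 of 20 genes, with a median of -0.56. The 1 gene that read higher on both was Ivl, with ratios of 0.65 and 0.26, and Flg had ratios of -2.29 and -0.03. Lor, which encodes loricrin, the main envelope protein, read 2030 and 2010 in F/- against 6440 and 5580 in F/+ RNA, and its ratios of -1.66 and -1.47 lay close together (mean -1.57 ± 0.13, adjusted p = 0.0701). Rptn, the repetin gene, read 178 and 278 against 523 and 533. Lce1a2 and Lce1f, late envelope genes of a family of near-identical copies whose probes may cross-hybridise, had ratios of -1.21 and -1.25 and of -1.37 and -1.11. In the desmosomes of upper layers, Dsc1 read 128 and 185 against 308 and 367, and Dsg1a, one of several near-identical desmoglein 1 genes of the mouse, had ratios of -1.29 and -0.37. Cdsn, the corneodesmosin gene, read 2540 against 6300 in pair 1 and 5030 against 5230 in pair 2.

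Barrier lipid enzymes and fate regulators followed with smaller medians of -0.30 over 10 and -0.18 over 12 genes. Smpd3, a sphingomyelinase gene, read 479 and 597 in F/- against 1500 in both F/+ cultures, and Acer1, an alkaline ceramidase gene of the epidermis, 939 and 1320 against 2580 and 2130. Ugcg, the glucosylceramide synthase gene, had ratios of -0.96 and -0.89. Of the transcription factors, Ovol1 read 2780 and 3000 against 5560 and 5000, though its second probe averaged -0.12, and Grhl1 had ratios of -1.39 and -0.25. Cebpa was one of 3 that read higher on both arrays, at 1350 and 1360 against 736 and 968. Beyond the lists, Sh3rf2, Mslnl and Paqr3 were among the 12 lowest genes, with ratios of -1.31 ± 0.04, -1.30 ± 0.21 and -1.31 ± 0.26, and the second probe of Paqr3 read 0.37.

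**Figure D2:**
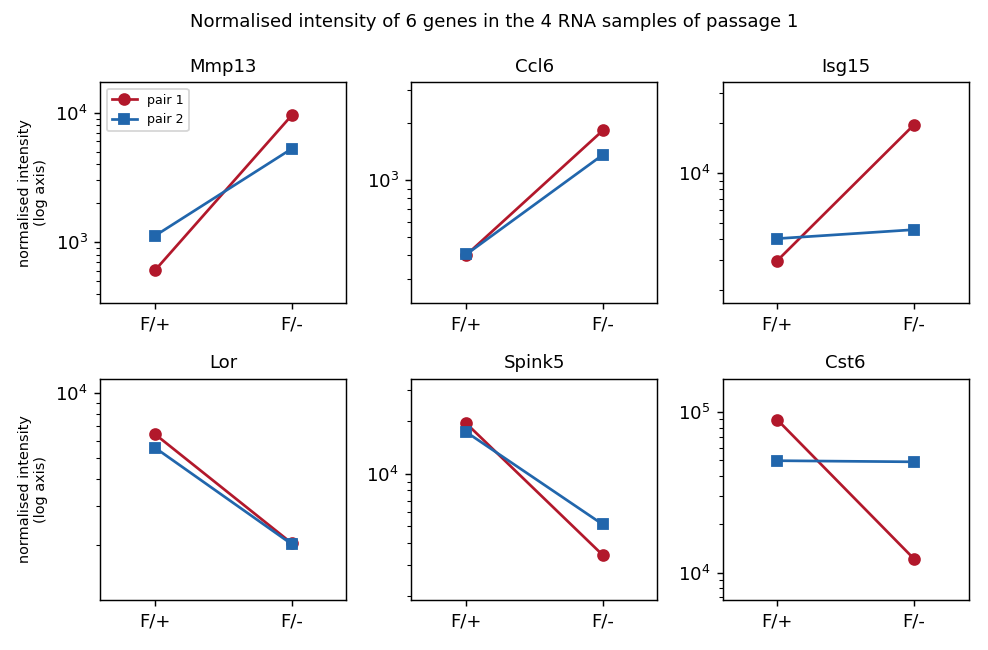
Normalised intensity (vertical axes, log scale, arbitrary units) of 6 genes in the 4 RNA samples of passage 1, with a line joining the F/+ and F/- RNA of each array, circles for pair 1 and squares for pair 2. The lines of Mmp13, Ccl6, Lor and Spink5 slope the same way in both pairs, while Isg15 goes from 2980 to 19400 in pair 1 and from 4040 to 4570 in pair 2, and Cst6 from 89700 to 12200 and from 49800 to 49000.

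The basal layer list held both directions. Its laminins all read higher, 6 of 6 on both arrays, and so did 6 of its 8 integrins, while basal keratins did not. Lamb3, a chain of laminin-332 that anchors basal cells, read 39900 and 23500 in F/- against 8410 and 12500 in F/+ RNA (ratio 1.58 ± 0.95, SD, n = 2, adjusted p = 0.116). Lama3 had ratios of 1.45 and 0.44, and its second probe averaged 0.03. Itga3, which pairs with beta-1 integrin as a laminin-332 receptor, read 22900 and 18300 against 9670 and 11300. Itga5, of the fibronectin receptor, read 1320 and 1310 against 603 and 751.

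Against these, Krt5 read 127000 and 114000 in F/- and 144000 and 173000 in F/+ RNA, and Col17a1, the hemidesmosome collagen gene, 60400 and 50600 against 75200 and 82000, although another Col17a1 probe averaged 0.10. Over the 22 genes, 15 read higher and 4 lower on both arrays and 0 were called. The list's median was 0.41, and 0.04 with median centring, so its height depends on that choice.

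Stress keratins and alarmins read lower on both arrays for 18 of 28 genes and higher for 4, with a median of -0.27 and 0 called. Krt17 read 98200 and 113000 in F/- against 193000 and 203000 in F/+ RNA (ratio -0.91 ± 0.091, adjusted p = 0.0701) and Krt16, likewise a keratin of wounded epidermis, 81800 and 96500 against 140000 and 136000. Krt6b read the other way, at 49600 and 52800 against 20700 and 35400, and its probe may also bind the near-identical Krt6a. The stefin Cstdc6, one of a cluster of protease inhibitor genes alike in sequence, read 12300 and 10200 against 25600 and 33600. Defb1, a beta-defensin gene, read 1850 against 8570 in pair 1 and 5390 against 7970 in pair 2. S100a7a, an alarmin gene of the psoriasin family, was higher at 863 and 530 against 439 and 245 (ratio 1.04 ± 0.098, adjusted p = 0.0701).

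Interferon effector genes, the antiviral proteins and GTPases induced by interferon, read higher in F/- cells of pair 1 and near equal in pair 2. Of 46 measured, 42 read higher in pair 1 beside 48.4% of all genes, and 24 were past 2-fold, while 29 read higher in pair 2 beside 49.0% and 0 were past 2-fold. The median ratio was 1.06 in pair 1 and 0.12 in pair 2, and the pair 1 ratio was the larger in 45 of 46. On both arrays 28 read higher and 3 lower, 16 had an unadjusted p under 0.05, beside 4028 of all 18395 genes, and 0 were called. Many promoters of such genes hold the interferon-stimulated response element, ISRE, and its letters (GAAA, any 2 bases, GAAA), on either strand, occurred in a window of 20 of the 34 effector genes that have one (58.8%), beside 554 of 14568 measured genes with a window (3.8%) and 1131 of all 32851 windows (3.44%). Shown are Isg15, at chr4:156200769-156201068 (minus strand), with 3 overlapping matches that begin between -78 and -66, and Irgm1, at chr11:48871371-48871670 (minus strand), with 2 that begin at -30 and -24; both genes were past 2-fold in pair 1 only, and capitals mark the matches.
Isg15: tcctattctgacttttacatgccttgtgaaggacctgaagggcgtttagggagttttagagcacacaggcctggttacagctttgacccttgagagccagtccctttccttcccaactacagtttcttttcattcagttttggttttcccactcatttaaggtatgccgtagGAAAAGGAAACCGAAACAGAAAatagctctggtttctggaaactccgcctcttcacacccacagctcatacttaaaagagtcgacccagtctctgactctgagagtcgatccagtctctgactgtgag
Irgm1: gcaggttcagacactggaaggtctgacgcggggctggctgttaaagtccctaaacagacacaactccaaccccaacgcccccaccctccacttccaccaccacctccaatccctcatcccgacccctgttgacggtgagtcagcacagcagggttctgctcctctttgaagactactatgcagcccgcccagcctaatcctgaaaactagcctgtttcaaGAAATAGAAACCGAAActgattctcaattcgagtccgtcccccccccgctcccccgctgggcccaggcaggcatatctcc

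Isg15, which encodes the ubiquitin-like interferon protein, read 19400 in F/- and 2980 in F/+ RNA of pair 1 and 4570 and 4040 in pair 2. The F/- culture of pair 1 thus stood above the other 3, of which the F/+ culture of pair 1 was the lowest. Rtp4 showed the same order at 11300, 1530, 2800 and 2530, with ratios of 2.88 and 0.15. Usp18, the protease that removes ISG15 and dampens interferon signalling, read 6680 against 901 and 1770 against 1470. Irgm1, an interferon-induced GTPase, had ratios of 1.62 and 0.13, and the guanylate-binding protein gene Gbp2 1.69 and 0.41. Ifi35 read 7430 and 5320 against 3360 and 3840.

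**Figure D3:**
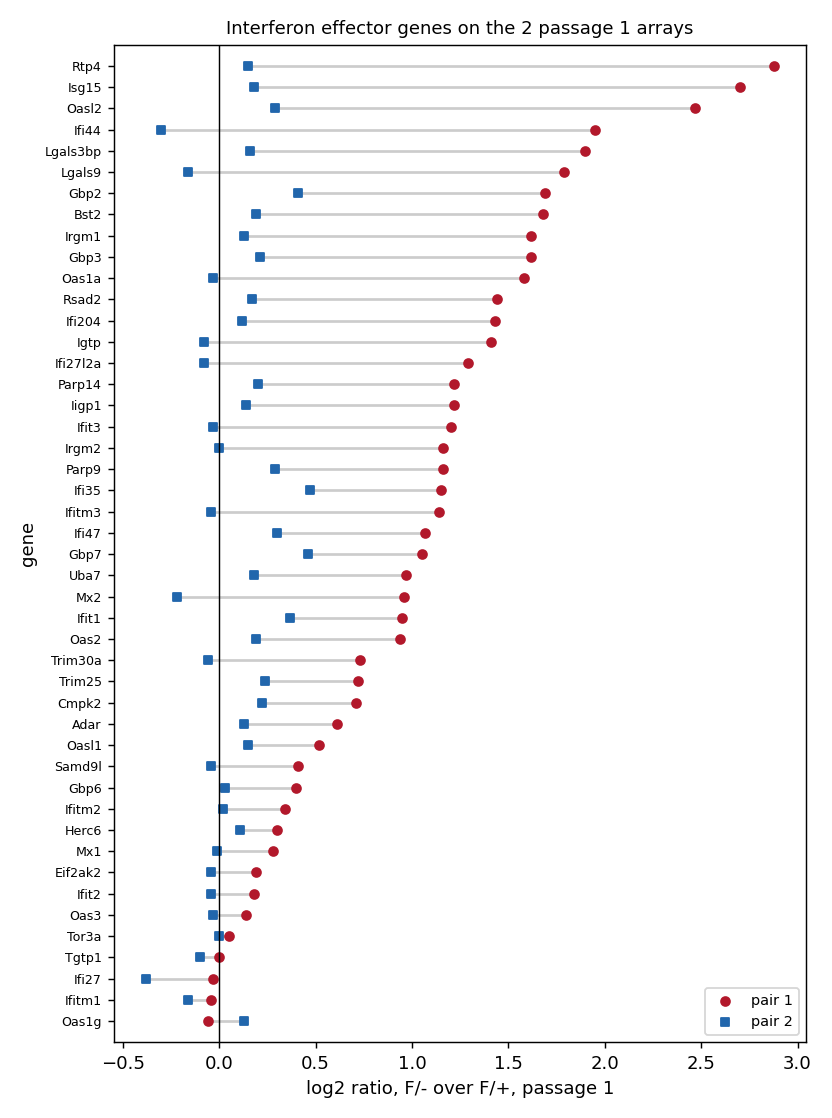
Log2 ratio of F/- over F/+ (horizontal axis) of the 46 measured interferon effector genes at passage 1, with a circle for pair 1 and a square for pair 2, ordered by pair 1. Circles reach 2.88 (Rtp4) and 24 lie past 1, while no square lies past 1 and the squares gather around a median of 0.12.

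The effectors with and without the ISRE letters both followed this split by pair. The 20 with the letters had medians of 1.18 in pair 1 and 0.01 in pair 2, with 13 past 2-fold in pair 1. The 14 without had 0.71 and 0.15, with 5 past 2-fold. In levels, 40 of the 46 effectors were highest in the F/- RNA of pair 1, as were 28.3% of all genes, and 36 were lowest in the F/+ RNA of pair 1, as were 26.4%. Markers of macrophages and other leukocytes took the same order, since 14 of 15 were highest in the F/- and 13 lowest in the F/+ RNA of pair 1. Their summed level, which follows the brightest probes, was 52390 in F/- and 30190 in F/+ RNA of pair 1 and 36240 and 34140 in pair 2. The part of these cells in the result was not tested.

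Upstream of the effectors, ligands and receptors read near equal, with a median of -0.02 over 8 genes. Ifna4 read 65.1 against 73.1 and 76.1 against 82.8, levels near the offset. Among sensors, Ifih1, the gene of the RNA sensor MDA5, read 2150 and 2000 in F/- against 1290 and 1670 in F/+ RNA, and Dhx58 had ratios of 1.34 and 0.08. Kinases and transcription factors had a median of 0.51 over 8 genes, 0.85 in pair 1 and 0.19 in pair 2. Tyk2, a kinase of the interferon receptor, read 1530 and 1840 against 778 and 978, and its ratios of 0.98 and 0.91 were alike in both pairs (adjusted p = 0.0701). Irf1 was alike in both as well, at 6810 and 6080 against 3870 and 3770. Irf7, the factor that amplifies the response, read 1260 against 245 in pair 1 and 602 against 380 in pair 2. Over the 30 pathway genes, 15 read higher and 4 lower on both arrays, with a median of 0.17 (0.29 and 0.10 by pair) and 0 called.

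MHC and antigen processing genes read higher on both arrays for 13 of 20, with a median of 0.42 (0.71 and 0.19 by pair) and 0 called. All 5 class I chains did so. H2-D1, a class I heavy chain, read 32200 and 20100 in F/- against 11100 and 14200 in F/+ RNA, and H2-T23 39900 and 29700 against 20700 and 20900 (ratio 0.73 ± 0.31, adjusted p = 0.0987). Probes of class I genes may cross-hybridise, and the second H2-D1 probe averaged 0.03. Tap1 and Psmb8, of peptide transport and the immunoproteasome, had ratios of 1.31 and 0.18 and of 1.70 and 0.24, again larger in pair 1. The 6 class II genes had a median of -0.01, with H2-Aa at ratios of -0.09 and -0.01.

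NF-kB subunits, inhibitors and targets read slightly higher in F/- cells of both pairs. Of 29 measured, 25 read higher and 0 lower on both arrays, with a median of 0.36 (0.38 in pair 1 and 0.20 in pair 2), and 0 were called. Median centring brought the median to 0.02. The NF-kB letters (GGGA, any base, TTTCC), searched on both strands, occurred in 135 of 32851 windows (0.411%). By gene with a window they were held by 3 of 24 of this list (12.5%) and 4 of 22 of the cytokine list (18.2%), beside 76 of 14568 measured genes (0.522%). Shown are Nfkbia, at chr12:55492598-55492897 (minus strand), with a match on the reverse strand at -29, and the chemokine gene Cxcl2, at chr5:90903649-90903948 (plus strand), with one at -97, which had like ratios in both pairs; capitals mark the match.
Nfkbia: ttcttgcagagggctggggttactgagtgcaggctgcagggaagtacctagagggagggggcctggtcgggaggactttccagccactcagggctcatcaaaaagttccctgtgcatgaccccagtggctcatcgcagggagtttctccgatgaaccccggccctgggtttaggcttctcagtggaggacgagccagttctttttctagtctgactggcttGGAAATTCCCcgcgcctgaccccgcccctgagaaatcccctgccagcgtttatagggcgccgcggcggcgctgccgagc
Cxcl2: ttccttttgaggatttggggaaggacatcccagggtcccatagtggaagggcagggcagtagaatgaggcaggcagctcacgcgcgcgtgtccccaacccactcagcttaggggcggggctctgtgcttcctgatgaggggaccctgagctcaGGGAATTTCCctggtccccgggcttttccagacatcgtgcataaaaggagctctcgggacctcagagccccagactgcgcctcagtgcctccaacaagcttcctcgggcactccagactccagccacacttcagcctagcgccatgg

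Feedback inhibitors read higher on both arrays in 8 of 8 cases. Nfkbia, which encodes the inhibitor IkB-alpha, read 69200 and 67000 in F/- against 46800 and 46100 in F/+ RNA, an equal step in both pairs (ratio 0.55 ± 0.018, SD, n = 2, adjusted p = 0.0758), though it averaged -0.09 under median centring. Tnfaip3, the gene of the ubiquitin-editing enzyme A20, read 6560 and 4320 against 3250 and 2730. Tnip1, whose protein binds A20, had ratios of 0.64 and 0.70. Among subunits, Relb read 7240 and 5460 against 4610 and 3670 (ratio 0.61 ± 0.055, adjusted p = 0.0743), and Nfkb2 had ratios of 0.58 and 0.35. Of the target genes, Tnfaip2 read 10200 and 6380 against 3370 and 4030.

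Cytokines and chemokines read in both directions. Over 34 genes, 18 read higher and 7 lower on both arrays, beside 33.0% and 35.6% of all genes, with a median of 0.41 and 0 called. Tnf, the ligand of the receptor that signals through caspase-8, read 4060 and 2900 in F/- against 1370 and 1540 in F/+ RNA (ratio 1.24 ± 0.47, adjusted p = 0.0834). Cxcl2, a neutrophil attractant, read 1520 and 1230 against 652 and 664, and the monocyte attractant gene Ccl2 had ratios of 1.55 and 1.04 (mean 1.30 ± 0.36, adjusted p = 0.0766). Cxcl10, which interferon induces, had ratios of 2.35 and 0.94. Csf1, the macrophage growth factor gene, read 4460 and 5230 against 2250 and 2540, and Il23a 661 and 505 against 332 and 268. In these genes, named for large ratios of one sign, both F/- levels lay above both F/+ levels, as in 21.7% of all genes. Over the 34 genes of the list this held for 16 (47.1%). Both F/- levels lay below both F/+ levels in 6 (17.6%), near the 17.8% of all genes.

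Interleukin-1 family genes had a median of -0.13, and 4 of 8 read lower and 2 higher on both arrays. Il33, an alarmin cytokine of epithelia, read 1010 and 873 in F/- against 1800 and 2280 in F/+ RNA (ratio -1.11 ± 0.39, adjusted p = 0.0834). Il18 read 182 and 295 against 770 and 438, and Il1f8, of the interleukin-36 branch, 465 and 366 against 772 and 680. Il1a, the gene of interleukin-1 alpha, was higher at 6270 and 8020 against 4260 and 3910 (ratios 0.56 and 1.04, adjusted p = 0.0876), as was Il1f6, likewise of the interleukin-36 branch, with ratios of 0.54 and 0.50 (adjusted p = 0.0822). Ccl20, the chemokine gene that attracts CCR6-bearing cells, read 269 against 1300 in pair 1 and 699 against 955 in pair 2.

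Apart from Tnf and Zbp1, the genes of the complex that caspase-8 works in had mean ratios between -0.23 and 0.40. Over 20 genes, 9 read higher and 3 lower on both arrays, with a median of 0.16 (0.28 in pair 1 and 0.02 in pair 2) and 0 called. Casp8 itself read 5640 in F/- and 4220 in F/+ RNA of pair 1 and 5380 and 4760 in pair 2 (ratio 0.30 ± 0.17, SD, n = 2, adjusted p = 0.417). The labels and files do not place its probe relative to the flanked exons, and it checks neither the deletion nor the labels. The adaptor gene Fadd had ratios of 0.33 and -0.04 and Cflar, which encodes cFLIP, 0.07 and -0.11. For necroptosis, Ripk1 read 0.32 and 0.01, Ripk3 0.19 and -0.22 and Mlkl 0.79 and -0.26 as log2 ratios. Zbp1, a nucleic acid sensor that engages RIPK3 and is itself induced by interferon, read 915 against 214 in pair 1 and 223 against 269 in pair 2, so that again the F/- culture of pair 1 stood apart. Among the receptors, Tnfrsf1a read 8780 and 10600 against 10800 and 11800, and Fas had ratios of 0.29 and 0.24, with a second probe at -0.15. Of the ubiquitin enzymes, Birc3 had ratios of 0.27 and 0.52, though its second probe averaged -0.24, and Rbck1 of 0.50 and 0.21.

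The list of growth factor and early response genes, below called growth factor genes, was mixed. Of 37 genes, 18 read higher and 9 lower on both arrays, and 0 were called. The median of 0.14 turned to -0.25 with median centring. By role, 8 of 10 TGF-beta and angiogenic factors read higher and 2 lower on both arrays. For the EGF receptor and its ligands these were 2 and 2 of 10, and for AP-1 and early response genes 8 and 5 of 17. Pdgfb read 937 and 967 in F/- against 323 and 439 in F/+ RNA (ratio 1.34 ± 0.28, adjusted p = 0.0758), and Vegfc 571 and 478 against 205 and 288. Epgn, an EGF receptor ligand, read lower at 2170 and 1940 against 5220 and 4050 (ratio -1.16 ± 0.14, adjusted p = 0.0701). Egr2 read 2360 against 11800 in pair 1 and 5390 against 7680 in pair 2. Cell cycle genes had a median of -0.07, which lay further below 0 with median centring, and 12 of 42 read higher and 19 lower on both arrays. Among them Bub1b, a spindle checkpoint gene, read 1560 and 1620 against 989 and 1150, while Cdc20 and Cenpf had ratios of -0.42 and -0.64 and of -0.80 and -0.36, the second Cenpf probe at 0.09.

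**Figure D4:**
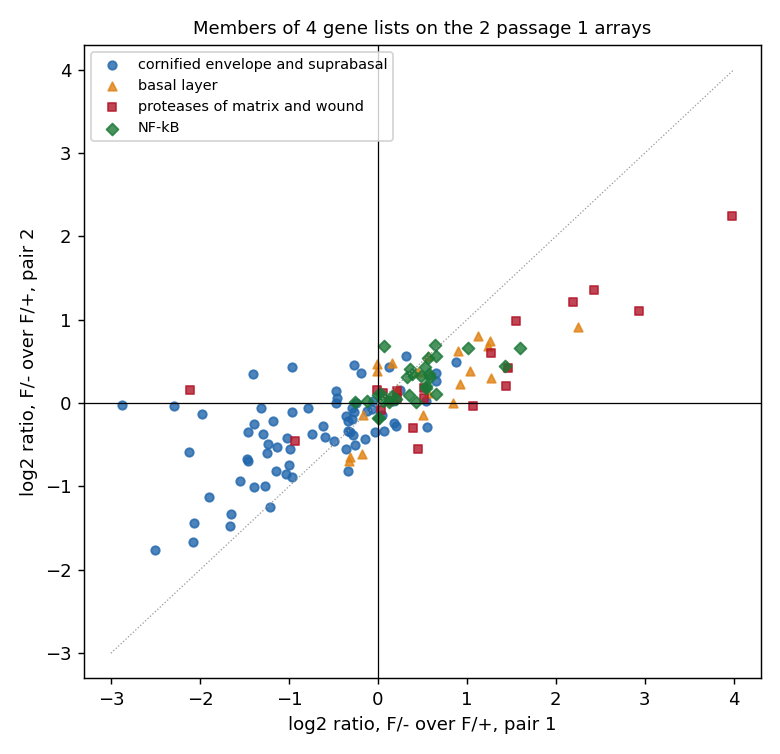
Log2 ratio of F/- over F/+ in pair 1 (horizontal axis) and pair 2 (vertical axis) for the members of 4 gene lists at passage 1, 1 point per gene, with equal ratios on the dotted line. Of the 73 cornified and suprabasal genes 53 lie at the lower left, and of the 29 NF-kB genes 25 lie in the upper right.

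**Figure D5:**
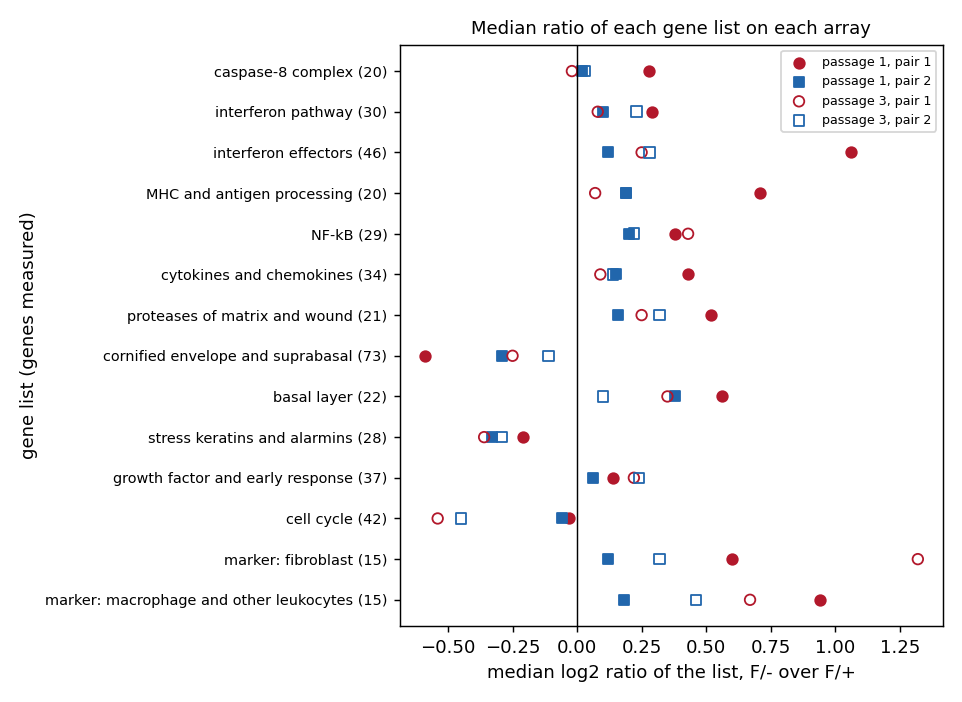
Median log2 ratio of F/- over F/+ (horizontal axis) of 14 gene lists on each of the 4 arrays, with circles for pair 1, squares for pair 2, filled symbols for passage 1 and open symbols for passage 3. Interferon effectors lie at 1.06 in pair 1 and 0.12 in pair 2 at passage 1, and cell cycle genes at -0.54 and -0.45 at passage 3.

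Markers of other cell types of skin were read beside these lists. A summed level follows the brightest probes of its list, so it weighs genes by probe intensity and not by amount of RNA. Of 15 fibroblast markers, 10 read higher and 1 lower on both arrays, with medians of 0.60 in pair 1 and 0.12 in pair 2 and a summed level of 21170 in F/- and 9533 in F/+ RNA of pair 1 and of 18060 and 16080 in pair 2. The bright Vim probe gave most of that sum, at 16800, 6330, 13400 and 11200, and Col1a1 read 277, 158, 335 and 243. Of the 15 leukocyte markers, 10 read higher and 0 lower on both arrays, and 5 read higher in pair 1 but lower in pair 2. Their medians were 0.94 in pair 1 and 0.18 in pair 2. Among those higher on both was Ptprc, the gene of CD45, at 213 and 146 in F/- against 142 and 129 in F/+ RNA. Csf1r, the receptor gene of macrophages, read 529 and 411 against 282 and 330. Smooth muscle markers summed to 45360 in F/- and 24210 in F/+ RNA of pair 1 and to 45290 and 20980 in pair 2, although only 2 of the 6 read higher on both arrays and 3 lower. Acta2, of smooth muscle actin, made up most of that sum at 40000, 18700, 40500 and 16200 (ratio 1.21, adjusted p = 0.0743), but its 3 other probes read between -0.12 and -0.04. Langerhans cell markers summed to 39430, 26100, 53830 and 33080, with 3 of 6 higher and 2 lower on both arrays. Epcam, which is also in the keratinocyte list, held most of it at 38700, 25400, 53100 and 32300. Merkel cell markers summed to between 638.8 and 853.9, T cell markers to between 838 and 956 in the 4 RNAs, melanocyte markers to between 69220 and 83440 and endothelial markers to between 1480 and 1939. Levels include an offset, so no list could sum to 0, and these sums do not show that such cells were present. The part of these cells in the epidermal results was not tested.

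Beside the interferon effectors, the 2 pairs disagreed over haemoglobin, single genes and part of the barrier list. Hbb-bt read 5970 against 1450 in pair 1 and 1090 against 2440 in pair 2, and Hba-a1 3590 against 1190 and 753 against 1520, so both haemoglobin genes were past 2-fold in opposite directions. Efcab7 and Pigt did the same, with ratios of 1.55 and -1.16 and of 1.46 and -1.72, but a second Pigt probe averaged 0.13. Psapl1, Arg1 and Aldh3b3 read far lower in F/- RNA of pair 1 only, with ratios of -3.13 and -0.41, of -2.54 and 0.07, and of -2.59 and -0.05. Arg1, the arginase gene, had levels of 8020 and 46600 in pair 1 and 25300 and 24100 in pair 2, so that the F/- and F/+ cultures of pair 1 lay on either side of those of pair 2. Of the 73 barrier genes, 44 were lowest in the F/- RNA of pair 1, as were 26.4% of all genes, and 38 were highest in the F/+ RNA of pair 1, as were 29.1%.

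At passage 3 the same cultures were read again. On these arrays the source name of the F/+ RNA gives the first passage, while the title, the description and the passage entry give the later one and were followed here. limma called 0 of 35563 probes (0.0%) for a difference between the passage 3 and passage 1 ratios, with a smallest adjusted p of 0.82 and 2073 (5.83%) at an unadjusted p under 0.05. Ccl6 had ratios of 2.28 and 1.53 at passage 3, Mmp9 of 1.43 and 0.97, Lgals7 of -2.20 and -1.29 and Spink5 of -2.03 and -1.16, on the side they held at passage 1. Lor, by contrast, read -0.43 and 0.20 at passage 3 (difference 1.45 ± 0.24, SE, adjusted p = 0.82), and Lce1a2 and Smpd3 -0.09 and 0.07 and -0.25 and -0.09. Nfkbia read 0.20 and 0.09. Isg15 read 0.64 and 1.33 at passage 3, which put pair 2 above pair 1. The effectors' median was 0.25 and 0.28 in the 2 pairs at that passage. Cell cycle genes, near 0 at passage 1 with loess but further below 0 with median centring, had medians of -0.54 and -0.45. Of the 42 genes, 24 had an unadjusted p under 0.05 for the difference, though 0 were called.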

How the data were processed

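RNA was amplified to cRNA and labelled with a two-colour kit, per the labels' protocols. The deposited scanner files hold raw intensity and local background per spot and, per the file headers, processed intensity and its log10 ratio. The submitters' processing notes name Agilent Feature Extraction, version 9.1.3.1. The deposited value table holds that log10 ratio with the sign turned (largest gap 4.96e-06; medians -0.00223, 0, 0 and -0.000733), that is Cy3 over Cy5, the direction used here; 1896, 1130, 2350 and 1774 of its spots are empty, and the rule for this is not stated. No genome build applies to the probes.

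Raw intensities were background-corrected with normexp (offset 50) and normalised by loess within arrays in limma 3.58.1 (R 4.3.3), controls and outlier spots having weight 0. Of 45018 spots, 43379 were gene spots and 0 were saturated. Spots of a probe were averaged, and probes were kept if 2 or more arrays had them well above background in either channel and no more than 1 array lacked a value. Levels are from loess followed by Aquantile. On the passage 1 arrays 81.8% to 87.9% of gene spots were well above background, and median signals were 101 and 138.9 in Cy3 and 184.3 and 252.7 in Cy5. The number of arrays limits the precision. All 4 arrays lay on 1 slide read in 1 scan. Names came from RefSeq (GRCm38.p6) by accession (21692 probes), symbol (5445) or older symbol (2592), and 5834 probes kept the name in the file.

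The fit took all 4 arrays with passage as the group (2 residual and 2.81 prior degrees of freedom), two-sided, with Benjamini-Hochberg adjustment over all probes. The fit was tested on simulated data. Pair numbers pair the arrays, since the design text has the same animals at both passages; deviations of same-numbered arrays correlated at -0.000471. P-values measure the spread between these arrays. Alternatives were the offset, background, centring, filter, probe choice, scanner ratios, the pair as a block, and each array left out. Named were the 12 highest and 12 lowest genes past 2-fold on both arrays and well above background, the 5 largest differences between pairs each way, those past 2-fold in opposite directions, the 5 largest bounds each way, up to 3 members per role of each list, and the caspase-8 and sex-linked lists. The members and lists were chosen with earlier results of these data known. Some results for named genes are not reported here.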

Additional observations from a re-analysis of the deposited data

Results flagged for a closer look

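For 17 of the named genes both passage 1 arrays read one way and both passage 3 arrays the other. The values are differences, passage 3 minus passage 1, in log2 ratio. Cox17 (-3.42), Klf2 (-3.38) and H1f10 (-2.65) read higher in F/- RNA at passage 1 and lower at passage 3, and a second probe of each read near 0 at passage 1 (-0.22, 0.17 and 0.25). Cxcl1, a neutrophil attractant gene, stood at -1.02, the integrin gene Itga2 at -0.92, the death receptor gene Fas at -0.79, H2-Ab1 at -0.69 and Ifnar2 at -0.33. The replication genes Mcm7, Cdt1 and Mcm2 stood at -0.76, -0.57 and -0.54. In the other direction, Egr2 stood at 1.98, Lce1f at 1.39, the inhibitor gene Timp2 at 1.05, S100a7l2 at 0.40, Uty at 0.22 and Tsix at 0.14. limma's test of these differences gave adjusted p between 0.82 and 0.924, so none passed.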

How the results depend on the processing

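The count of probes called at passage 1 was 69 with an offset of 0 (49 higher and 20 lower) in place of 0, and 0 under every other alternative run. Among named genes, 13 were called with that offset. Probes past 2-fold on both arrays, 64 higher and 33 lower, were 109 and 54 with an offset of 0, 37 and 139 with median centring, and 156 and 61 with the scanner software's ratios. Median centring gave list medians of 0.02 for NF-kB, -0.84 for cornified, 0.04 for basal, -0.57 for stress, -0.25 for growth factor and -0.36 for cell cycle genes, and the scanner ratios -0.09 for cell cycle genes. Leaving out one array at a time, the medians ranged over 0.20 to 0.38 for NF-kB, 0.15 to 0.43 for cytokine, 0.38 to 0.56 for basal, 0.06 to 0.14 for growth factor, -0.07 to -0.03 for cell cycle, 0.12 to 1.06 for interferon effector, 0.19 to 0.71 for MHC, 0.10 to 0.29 for interferon pathway, 0.16 to 0.52 for protease and 0.02 to 0.28 for caspase-8 complex genes. In all of these lists but cell cycle, the low value came without pair 1 of passage 1. With the pair number as a block, 0 probes were called, and no call changed.

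Of 2052 values of named genes under the alternatives, 2016 kept their sign. With 1 array left out, signs turned for 16 genes. Without the passage 1 array of pair 1 they turned for Efcab7 (range over the arrays left out -1.16 to 1.55), Hbb-bt (-1.17 to 2.04), Arg1 (-2.54 to 0.07), Ccdc68 (-1.98 to 0.37), Hba-a1 (-1.01 to 1.59), Fadd (-0.04 to 0.33), Mlkl (-0.26 to 0.79), Zbp1 (-0.27 to 2.09), Sharpin (-0.16 to 0.04), Tnfrsf10b (-0.02 to 0.23) and Kdm5d (-0.32 to 0.05). Without that of pair 2 they turned for Pigt (-1.72 to 1.46), Cflar (-0.11 to 0.07), Ripk3 (-0.22 to 0.19), Birc2 (-0.03 to 0.06) and Xist (-0.09 to 0.09). Median centring turned 13 genes, among them Birc2 (-0.07), Ifnar2 (-0.01), Ifna4 (0.01), Rela (-0.0), Nfkbia (-0.09), Cxcl1 (-0.07), Plaur (-0.1), S100a16 (-0.01), Cdt1 (-0.12), Mcm7 (-0.21), Xist (-0.09) and Tsix (0.05). The scanner ratios turned Pigt (0.11) and Birc2 (-0.03), the mean of all probes Pigt (0.0), Egfr (0.04) and Xist (-0.18), the offset of 0 Xist (-0.0), and no filter Cacna1e (0.04). The cause was not tested. Signal over background limited the dimmest genes, such as Ifna4 and H2-Aa.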

Other observations

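Genes well above background in one genotype and in neither RNA of the other differed little. Olfr1467 was the furthest, with a bound of 1.22-fold higher in F/- RNA, and S100a7l2 had a bound of 1.19-fold lower. A bound compares the mean of the bright RNAs with that of the dim ones. For each dim RNA it takes the larger of the measured level and the lowest signal well above background. In both genes the bound on the dim side equalled the measured level, at log2 6.08 and 6.11, so these are ratios of measured levels. The sex-linked genes Ddx3y and Uty had ratios of -0.25 and -0.10 and of -0.07 and -0.12 at passage 1, against -1.27 and -0.29 for Eif2s3y.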
